A study of Mus musculus with 8 samples.

Results

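The Dlk1-Dio3 imprinted domain on mouse chromosome 12 was examined through its 6 main transcripts, Dlk1, Rtl1, Dio3, Meg3, Rian and Mirg. They were taken by gene symbol and Ensembl identifier from the count table, which has 55416 rows, and all 6 were found and had counts in every library. RNA was isolated from the cerebral cortex of mice heterozygous for the Ago2 L192P substitution (genotype AGO2_L192P/+, called L192P here) and of wildtype mice (WT), and polyadenylated RNA was sequenced in 4 libraries of each genotype. The comparison asks which transcripts differ in abundance when 1 of the alleles of Ago2, the gene of the Argonaute protein that carries miRNA guides, holds the substitution. The substitution was introduced by CRISPR/Cas into the germline of C57BL/6JUke mice, so every cell that uses Ago2 carries it, together with a silent change at the cut site, and heterozygotes were bred with wildtype animals. The WT mice carry no edited allele, no group received a treatment, and age and sex are not given in the sources used here.

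Imprinted genes are transcribed from the allele of 1 parent only. In this domain the chromosome inherited from the father expresses protein-coding genes. Dlk1 encodes a transmembrane protein of the epidermal growth factor-like family that is related to Notch ligands, Rtl1 encodes a protein derived from a retrotransposon, and Dio3 encodes the deiodinase that inactivates thyroid hormone. The chromosome inherited from the mother expresses noncoding RNAs, namely the long RNA Meg3, the snoRNA host Rian and the miRNA host Mirg. The miRNA clusters of the domain are expressed in the brain and are processed from these maternal transcripts, and such miRNAs are cargo of Argonaute proteins.

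In genome build GRCm39 the domain runs from chr12:109418749, the start of Dlk1, to chr12:110247531, the end of Dio3. Dlk1 ends at 109429262 and lies on the plus strand. Meg3 covers 109506877 to 109538165 and Rian covers 109570242 to 109628150, both on the plus strand. Mirg follows on the same strand from 109696198 to 109715898. Rtl1 is the only member on the minus strand, from 109555627 to 109582007, and its gene span overlaps that of Rian. Dio3 is a gene of 1 exon that starts at 110245502. By exact sequence, 58 miRNA hairpins of RefSeq were placed between Dlk1 and Dio3, of which 54 are on the plus strand, and they give 108 different mature miRNAs with 99 different seeds, the seed being bases 2 to 8 of a miRNA.

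**Figure D1:**
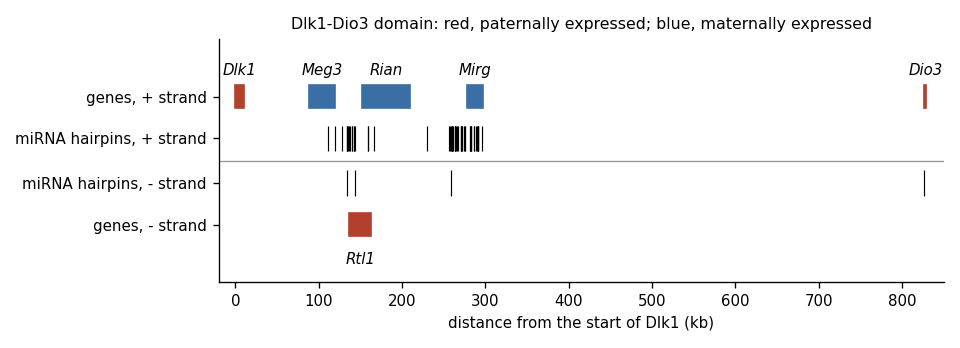
Map of the domain, with the distance from the start of Dlk1 in kb on the horizontal axis, genes as boxes and miRNA hairpins as ticks, separately for each strand. The 3 paternally expressed genes (red) lie at both ends and opposite the maternal transcripts (blue), and 54 of the 58 hairpins lie on the plus strand.

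Rtl1 is the member with the most direct tie to Argonaute, because 6 hairpins lie on the opposite strand within its coding sequence (Mir431, Mir433, Mir127, Mir434, Mir432 and Mir136). They give 11 mature miRNAs that are complementary to Rtl1 over their whole length, each at exactly 1 position. The sequences of 5 of them are shown because such pairing is what lets Argonaute 2 cut an mRNA. They are from RefSeq, are written 5′ to 3′, and have the seed in capitals.
mmu-miR-431-5p: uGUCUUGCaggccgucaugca
mmu-miR-433-3p: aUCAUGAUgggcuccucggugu
mmu-miR-127-3p: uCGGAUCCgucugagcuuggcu
mmu-miR-434-3p: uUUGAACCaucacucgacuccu
mmu-miR-136-5p: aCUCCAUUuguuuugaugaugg
The site of miR-127-3p in Rtl1, at chr12:109559322-109559343 (GRCm39), reads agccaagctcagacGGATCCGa on the minus strand, with the match to the seed in capitals. That of miR-433-3p, at chr12:109558215-109558236, reads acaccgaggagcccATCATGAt on the same strand.

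Mirg contains 14 hairpins on its own strand, 6 of them wholly within an exon of its annotated transcripts. The following miRNAs are shown as products of Mirg, and miR-494-5p is added because it lies outside the 6 members and has the same seed as miR-410-5p.
mmu-miR-134-5p: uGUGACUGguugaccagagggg
mmu-miR-409-3p: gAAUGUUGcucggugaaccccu
mmu-miR-369-3p: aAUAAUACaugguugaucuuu
mmu-miR-410-3p: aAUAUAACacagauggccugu
mmu-miR-410-5p: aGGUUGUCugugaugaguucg
mmu-miR-494-5p: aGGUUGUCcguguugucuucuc
Of the hairpins placed, 1 (Mir770) lies in an exon of Meg3 and 3 lie within Rian. The annotation has further miRNA genes in their exons, Mir1906-1 in Meg3 and Gm55108 in Rian, which were not among those placed. The mature miRNAs themselves were not captured by these libraries. Of 67 miRNA rows of the count table in the domain, 23 had any count, with 163 counts over the 8 libraries together, and 23 snoRNA rows had 22 counts together.

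Total counts per library ran from 20396357 to 43575900, and the 6 members took between 0.113% and 0.242% of them. Replicate 1 of both genotypes stood apart: Xist, the RNA of the inactive X chromosome, was at 0.934 and 1.82 normalized counts in these libraries and at 5185 to 7257 in the other 6. Counts on chromosome Y were 3547 (L192P) and 3534 (WT) in the replicate 1 libraries and 186 to 573 in the other 6. Replicate 1 thus had the pattern of males and the other 6 libraries that of females, so replicate 1 and sex cannot be told apart. Ago2 itself had 2291 ± 75.1 normalized counts in L192P and 2246 ± 130.0 in WT (SD, n = 4). The allele differs from wildtype by a substitution, so this level does not check the genotype labels. Normalized counts are counts divided by a size factor per library, errors are SD with n = 4 throughout, and genes were called at a DESeq2 adjusted p under 0.05.

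Levels of different genes were compared as TPM, a count per length scaled to the same total in every library, from the summed length of all annotated exons. Meg3 was the most abundant member, at 268 ± 158 TPM in L192P and 283 ± 130 TPM in WT. Rian came next, at 88.0 ± 10.4 and 88.4 ± 8.11 TPM, and its highest library (102 TPM) was below the lowest of Meg3 (162 TPM). Dlk1 followed at 17.3 ± 1.94 TPM in L192P and 8.22 ± 3.19 TPM in WT. These 3 made a clear order in L192P, as the ranges of neighbours did not overlap.

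Dio3 (6.31 ± 2.29 and 4.79 ± 3.30 TPM), Rtl1 (4.12 ± 1.92 and 3.51 ± 1.66 TPM) and Mirg (2.18 ± 0.505 and 2.85 ± 1.05 TPM) were low. Their ranges over libraries overlapped, and in WT the range of Dio3 also reached that of Dlk1, from 1.71 to 7.69 TPM against 5.78 to 12.7 TPM. The length used matters for the host RNAs, which have many annotated transcripts. With the canonical transcript alone, the mean over all libraries was 1770 TPM for Meg3, 484 TPM for Rian and 3.53 TPM for Mirg. That put Mirg above both Dio3 (3.07 TPM) and Rtl1 (2.25 TPM).

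Of the 6 members, Dlk1 rose in L192P, to 2.09 times its WT level, and the other 5 did not pass the test. Over all 18627 genes that entered the adjusted test, 253 (1.36%) were called. L192P was higher for 147 (0.789%) and lower for 106 (0.569%). The groups did not overlap for 1 of the 6 members, again Dlk1, and for 5.97% of all tested genes. The median log2 fold change of all tested genes was 0.0019, which the scaling by size factors sets close to 0.

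**Figure D2:**
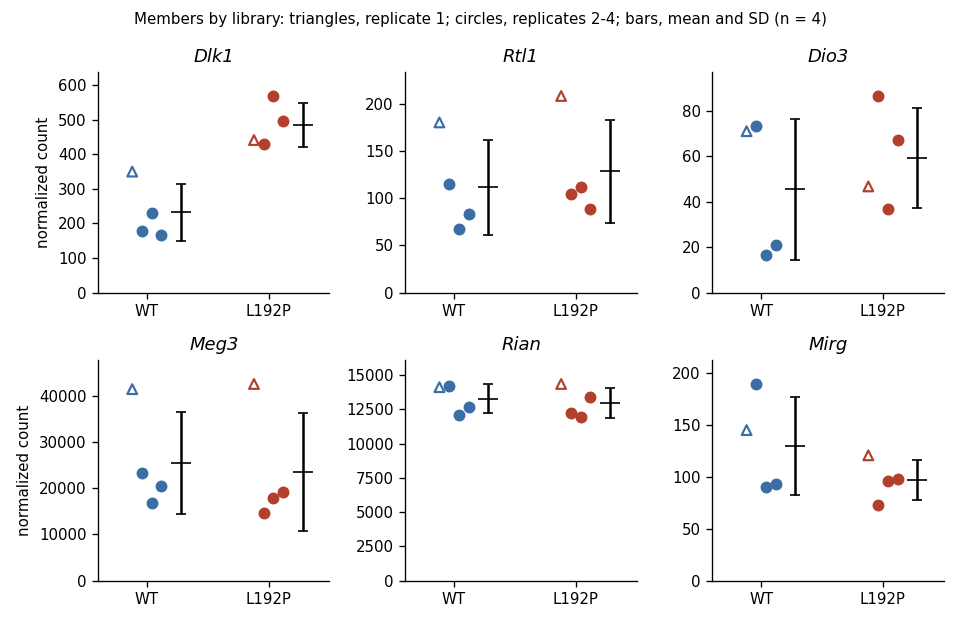
Normalized count of each member in every library, on linear axes that start at 0; open triangles are replicate 1, filled circles replicates 2 to 4, and bars the mean with SD (n = 4). Dlk1 separates the genotypes, at 429 to 568 in L192P and 167 to 349.7 in WT, and Meg3 and Rtl1 are highest in both replicate 1 libraries.

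Dlk1 (ENSMUSG00000040856) had normalized counts of 441, 429, 568 and 497 in L192P replicates 1 to 4. In WT replicates 1 to 4 it had 349.7, 178, 231 and 167. Every L192P library was above every WT library, and the highest WT value was that of replicate 1, at 1.97 times the median of the other 3 WT libraries. The means were 483.9 ± 63.7 and 231.6 ± 83.5 normalized counts. The log2 fold change was 1.06 ± 0.19 (standard error), and the fold of 2.09 had a 95% interval from 1.61 to 2.71 (DESeq2, adjusted p = 1.84e-05). The exact permutation test (two-sided, 4 against 4 libraries, unpaired) gave p = 0.0286, the smallest that an unpaired test of this size allows. Dlk1 also passed with the replicate number as a block (DESeq2, adjusted p = 0.00202), with a larger adjusted p than in the unpaired fit.

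Among the 253 called genes Dlk1 ranked at position 26 by p. Among the 112 higher genes with a mean of at least 100 normalized counts, it ranked at position 9 by fold change. The difference was positive within each replicate number, by 0.33 for replicate 1 and by 1.26, 1.29 and 1.56 for replicates 2 to 4 on the log2 scale. Replicate 1 of WT, which was the nearest to L192P, therefore gave the smallest difference. Without both replicate 1 libraries the log2 fold change was 1.38 (DESeq2, adjusted p = 5.34e-16), and with edgeR the adjusted p was 0.046.

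Markers of several other brain regions moved with the genotype as well. The hypothalamus, where Dlk1 is known to be expressed in neuropeptide neurons, is given first. Of 11 hypothalamus markers, 9 entered the adjusted test, 3 rose and none fell, with a median log2 fold change of 0.915. Oxt, which encodes the precursor of oxytocin, had 145, 19.3, 143 and 155 normalized counts in L192P and 2.73, 5.08, 7.60 and 4.68 in WT (log2 fold change 4.53, DESeq2 adjusted p = 3.69e-07). Avp, the vasopressin precursor gene, had 328.9, 19.3, 459 and 220.4 in L192P and between 10.5 and 21.9 in WT (4.22, DESeq2 adjusted p = 1.55e-04). Otp, a transcription factor of such neurons, had 64.5, 12.5, 41.5 and 43.1 in L192P and at most 11.8 in WT (3.41, DESeq2 adjusted p = 1.29e-04).

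Thus L192P replicate 2 was the lowest of its group for all 3 genes. Summed over the 11 markers, the level was 981, 382, 1521 and 945 normalized counts in L192P and 348, 267, 235 and 357 in WT. None of the 11 was at 0 in every library. In L192P replicate 2, whose sum was nearest to WT, Dlk1 was at 429 normalized counts, against at most 349.7 in WT. That was also the lowest Dlk1 count of the L192P libraries. L192P replicate 3 was the highest for both Dlk1 (568) and the marker sum (1521). L192P replicates 1 and 4 ran the other way, with sums of 981 and 945 and Dlk1 at 441 and 497. In WT the orders differed, as Dlk1 was at 349.7, 178, 231 and 167 in replicates 1 to 4. WT replicate 4 thus had the highest sum and the lowest Dlk1 count of its group. The part of these markers in the Dlk1 result was not tested. In bulk tissue, more cells of a type and more RNA per cell cannot be told apart.

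**Figure D3:**
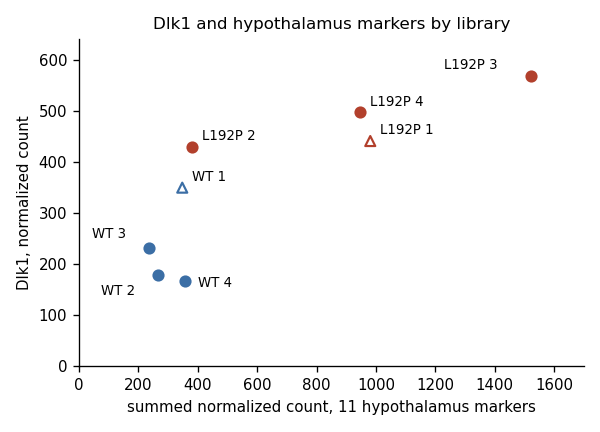
Dlk1 against the summed level of 11 hypothalamus markers in each of the 8 libraries, both as normalized counts on linear axes; red is L192P, blue is WT, and triangles are replicate 1. Both measures are higher in every L192P library, and L192P replicate 2 has a marker sum of 382, near the WT libraries, with a Dlk1 count of 429. Within L192P both measures are lowest in replicate 2 and highest in replicate 3, but replicates 1 and 4 are in opposite order. Within WT the marker sum is highest in replicate 4 (357), where Dlk1 is lowest (167).

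Other regional markers also shifted. The 7 striatum markers had a median log2 fold change of -0.293, and their sum was 26370 to 34122 normalized counts in L192P and 34596 to 42773 in WT, without overlap. Of these 7, 1 fell and 5 had an unadjusted p under 0.05 (DESeq2). Of the 6 thalamus markers Gbx2 rose and 3 had an unadjusted p under 0.05 (DESeq2), with a median log2 fold change of 0.735. Their sum was 3397 to 6603 normalized counts in L192P and 3177 to 3703 in WT. Slc6a13 rose among the 7 meningeal fibroblast markers, whose sum was 10467 to 21570 against 10588 to 13378, and Gad2 rose among the 6 inhibitory neuron markers, at 22851 to 26324 against 20551 to 23450.

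General neuron markers were abundant in all libraries, while no list of markers particular to the cortex was examined. The 10 neuron markers summed to 214791 to 238223 normalized counts in L192P and 221171 to 241600 in WT. The 6 excitatory neuron markers summed to 36814 to 41557 and to 42246 to 43644, so these groups did not overlap, although none of the 6 passed the test, while 3 had an unadjusted p under 0.05 (DESeq2). No marker was called in the lists of astrocytes (0 of 7 with an unadjusted p under 0.05), oligodendrocytes (0 of 7), microglia (2 of 7), endothelial and mural cells (0 of 8), choroid plexus (0 of 6) or erythroid cells (0 of 5). With the replicate number as a block, DESeq2 called 5 striatum and 3 excitatory neuron markers lower, and 2 meningeal and 1 microglia markers higher. For hypothalamus it called 2 higher and gave no adjusted p for 9, and for thalamus it called 1 higher and gave none for 2. With the block, edgeR called 4 hypothalamus and 4 thalamus markers higher. The part of any of these lists in the results for the members was not tested.

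Rtl1 (ENSMUSG00000085925) had normalized counts of 208, 105, 112 and 88.6 in L192P and 180.3, 115, 67.4 and 83.1 in WT. The groups overlapped, and replicate 1 was the highest library in each genotype. On the log2 scale L192P differed from WT by 0.20 ± 0.42 (SE) (DESeq2, adjusted p = 0.966), with a 95% interval from -0.62 to 1.02. The exact permutation test gave p = 0.571. The interval spans 0.653 to 2.03 times the WT level, so a difference within these bounds is not excluded.

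Dio3 (ENSMUSG00000075707) had 46.7, 86.5, 36.9 and 67.1 normalized counts in L192P, against 71.0, 73.4, 16.3 and 21.1 in WT. WT split into a higher pair (replicates 1 and 2) and a lower pair (replicates 3 and 4), and the groups overlapped. On the log2 scale L192P differed from WT by 0.36 ± 0.42 (SE) and a 95% interval from -0.47 to 1.19 (DESeq2, adjusted p = 0.914). Leaving out WT replicate 3 gave 0.0823 and leaving out WT replicate 2 gave 0.70. An exact permutation test gave p = 0.514. With raw counts of 15 to 130 per library, Dio3 was the member with the fewest reads.

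Meg3 (ENSMUSG00000021268) had 42658, 14603, 17962 and 19277 normalized counts in L192P replicates 1 to 4. In WT replicates 1 to 4 it had 41538, 23382, 16721 and 20530. Replicate 1 was at 2.37 times the median of the other 3 libraries in L192P and at 2.02 times in WT, so replicate numbers differed more than genotypes did. On the log2 scale L192P differed from WT by -0.11 ± 0.46 (SE) and a 95% interval from -1.02 to 0.79 (DESeq2, adjusted p = 0.986). The exact permutation test gave p = 0.629. Leaving out both replicate 1 libraries gave -0.23 (DESeq2, adjusted p = 0.679).

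Rian (ENSMUSG00000097451) was the steadiest member, with 14361, 12216, 11941 and 13400 normalized counts in L192P and 14127, 14201, 12095 and 12673 in WT. The highest library was 1.20 times the lowest in L192P and 1.17 times in WT. On the log2 scale L192P differed from WT by -0.03 ± 0.08 (SE) and a 95% interval from -0.19 to 0.12 (DESeq2, adjusted p = 0.975). The exact permutation test gave p = 0.714. This interval is the narrowest of the 6 and bounds the level in L192P between 0.88 and 1.09 times that in WT.

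Mirg (ENSMUSG00000097391) had 121, 72.8, 95.7 and 98.2 normalized counts in L192P and 145, 189, 90.2 and 92.5 in WT. The groups overlapped, and the mean was 96.8 ± 19.5 in L192P and 129 ± 47.3 in WT. On the log2 scale L192P differed from WT by -0.43 ± 0.25 (SE) and a 95% interval from -0.91 to 0.06 (DESeq2, unadjusted p = 0.0831, adjusted p = 0.63). The exact permutation test gave p = 0.314. The difference within replicate numbers was -1.37 for replicate 2, -0.26 for replicate 1 and 0.09 for each of replicates 3 and 4, so the lower mean rested on replicates 1 and 2.

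**Figure D4:**
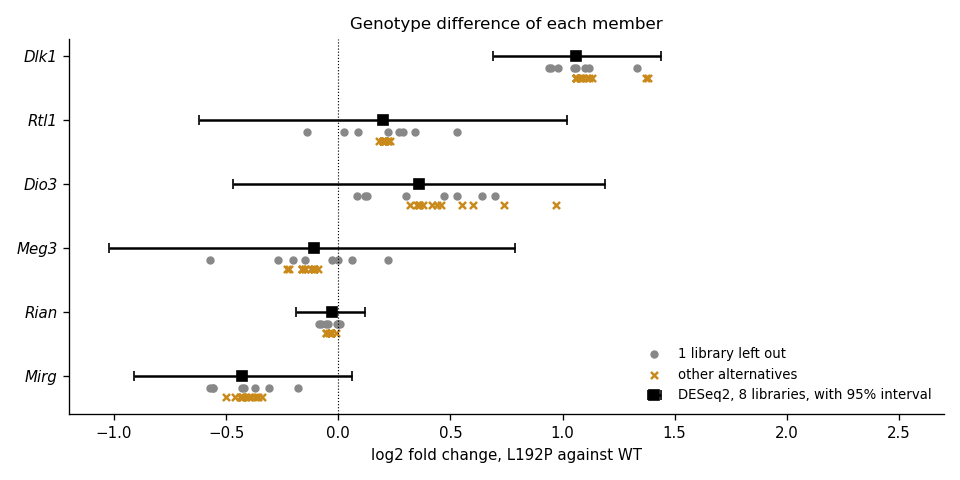
Log2 fold change of each member between L192P and WT, as the DESeq2 estimate over 8 libraries with its 95% interval (squares), with 1 library left out (grey circles) and under the other alternatives (crosses). Dlk1 lies between 0.94 and 1.38 in all 21 alternatives, and the intervals of the other 5 members include 0.

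Dlk1 passed the threshold in 21 of 21 alternative fits, with adjusted p from 3.83e-17 to 0.046. None of the other 5 members passed in any alternative that gave an adjusted p. The 3 paternally expressed genes had log2 fold changes of 1.06 (Dlk1), 0.20 (Rtl1) and 0.36 (Dio3), with intervals that overlap, and the differences between them were not tested.

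The members were next compared within each library, where no size factor is needed. The log2 ratio of Rian to Meg3 counts was -1.57, -0.26, -0.59 and -0.52 in L192P and -1.56, -0.72, -0.47 and -0.70 in WT. Both replicate 1 libraries thus held about the same low ratio, whatever the genotype. The ratio of Mirg to Rian ranged from -7.39 to -6.23, and the genotype means were -7.09 ± 0.22 and -6.75 ± 0.41. The ratio of Dlk1 to Meg3 was -6.60, -5.09, -4.98 and -5.28 in L192P and -6.89, -7.04, -6.18 and -6.94 in WT, and the groups overlapped through L192P replicate 1.

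Meg3 and Rtl1 shared the excess in replicate 1. In L192P and WT respectively, replicate 1 was 2.21 and 1.78 times the highest other library for Meg3 and 1.86 and 1.56 times for Rtl1. Only 14 of 13422 genes with a mean of at least 50 normalized counts (0.104%) had replicate 1 above 1.5 times the highest other library in both genotypes, and 2 of the 6 members were among them. The cutoff of 1.5 was set after these values were seen, and the count is a description. Rian, which lies next to Meg3 on the same strand, was at 1.07 and 0.995 times in replicate 1.

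Correlations between members were computed over the 8 libraries for 15 pairs, on log2 normalized counts plus 1. After Benjamini-Hochberg adjustment over the pairs none passed, and the smallest adjusted p was 0.0599. The highest r was that of Rtl1 and Meg3, followed by 2 of the 3 pairs of maternal RNAs. For Meg3 and Rian, Pearson's r was 0.83 (exact permutation p = 0.00441, adjusted 0.0599) and Spearman's rho was 0.86 (exact permutation p = 0.0107, adjusted 0.115). Without the 2 libraries farthest from the median of Meg3 r was 0.79.

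For Rian and Mirg r was 0.81 (exact permutation p = 0.0112, adjusted 0.0599) with a rho of 0.76 (exact permutation p = 0.0368, adjusted 0.173), and r was 0.90 without the farthest 2 libraries. Meg3 and Mirg had an r of 0.64 (exact permutation p = 0.0802, adjusted 0.241) and a rho of 0.83 (exact permutation p = 0.0154, adjusted 0.115). Rtl1 and Meg3 had an r of 0.87 (exact permutation p = 0.012, adjusted 0.0599) and a rho of 0.71 (exact permutation p = 0.0576, adjusted 0.173), but r fell to 0.21 without the 2 farthest libraries, so this relation rested on them. Within the 6 libraries other than replicate 1, r was 0.79 for Meg3 and Rian, 0.85 for Meg3 and Mirg and 0.82 for Rian and Mirg, each with an adjusted exact permutation p of 0.299. Without the 2 farthest of these 6 libraries r was 0.64, 0.38 and -0.03, so the relations of Mirg within them rested on those libraries. Over the 8 libraries together Dlk1 did not follow Meg3, at an r of 0.05 (exact permutation p = 0.903, adjusted 0.903) and a rho of -0.14 (exact permutation p = 0.752, adjusted 0.94). Genotype means were not removed for these correlations, and Dlk1 differed between genotypes, so a relation within a genotype was not tested. In WT both genes were highest in replicate 1, and in L192P only Meg3 was.

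**Figure D5:**
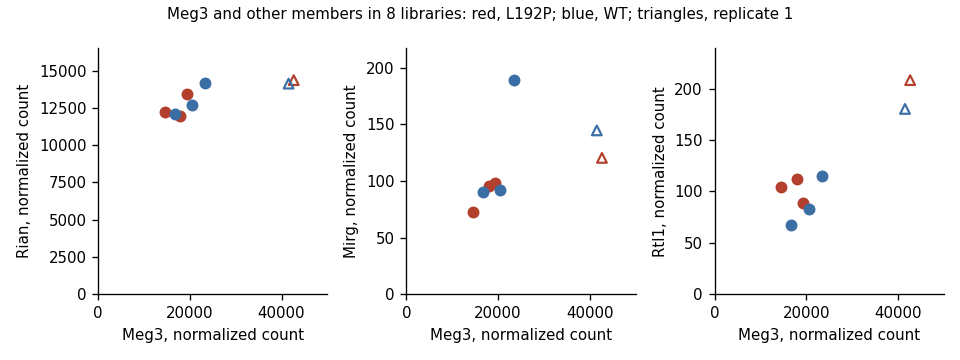
Rian, Mirg and Rtl1 against Meg3 in the 8 libraries, as normalized counts on linear axes that start at 0; red is L192P, blue is WT, and triangles are replicate 1. Both replicate 1 libraries lie at 41538 and 42658 for Meg3, where Rtl1 is also highest and Rian stays within 11941 to 14361.

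The genes most like each member were found by Pearson's r over the 8 libraries after the genotype means were removed, among 13409 genes outside the domain and its flanks, as a description. They share depth, dissection and replicate number with the members. For Meg3 they were Rab26 (r 0.995), Gm12258 (0.982) and Miat (0.977), a long noncoding RNA of neurons. Miat had 3368, 1338, 1580 and 1392 normalized counts in L192P and 3479, 2379, 1515 and 1838 in WT, again highest in replicate 1. For Dlk1 they were Nhs (0.983), Spata7 (0.974) and Gm42433 (0.973). Nhs rose too in L192P (log2 fold change 0.46, DESeq2 adjusted p = 0.0465), while Spata7 was at 0.03.

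Rtl1 was most like Lrrfip1 (0.985), Pithd1 and Phkg2, and Dio3 was most like Col23a1 (0.969), Mrps27 and Dalrd3. For Rian they were Riok1 (0.979), St8sia5 and Gm15506, and for Mirg they were Nop56 (0.988), which encodes a core protein of snoRNA complexes, B4galnt4 and Opn3.

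No other gene of the domain passed the test. Between Dlk1 and Dio3 the table had 109 further rows, 37 of them with counts and 3 with enough to enter the adjusted test, and none had an unadjusted p under 0.05 (DESeq2). The 1 with a mean of at least 10 normalized counts was Gm34081, at 18.7, 11.4, 11.5 and 16.8 in L192P and 8.20, 8.47, 13.0 and 16.4 in WT (log2 fold change 0.38, DESeq2 adjusted p = 0.915). Within 500 kb before Dlk1, 2 genes were tested, namely Wdr25 (log2 fold change 0.08, DESeq2 adjusted p = 0.945) and Begain (-0.10, adjusted p = 0.823), which encodes a synaptic protein. Within 500 kb after Dio3, 10 were tested and none was called or had an unadjusted p under 0.05. Dlk1 was thus the 1 called gene of this window, in edgeR too.

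Pathways around the members were read from the same fit. For Dio3 the list held 20 genes of thyroid hormone transport, deiodination and response, of which 19 were tested, none was called and 2 had an unadjusted p under 0.05 (DESeq2), with a median log2 fold change of -0.014. Dio2, which encodes the activating deiodinase, had a mean of 1062 ± 280 normalized counts in L192P against 1196 ± 286 in WT (it was singled out after its values were seen). Ttr, a thyroid hormone carrier made by choroid plexus, was at 0.35 (adjusted p = 0.892), the receptor gene Thra at 0.06 (adjusted p = 0.874), and the hormone-responsive Klf9 at -0.03 (adjusted p = 0.983). Hr, a corepressor gene that thyroid hormone induces, was at -0.32 (DESeq2, adjusted p = 0.303) and passed without WT replicate 1.

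For Dlk1 the list held 26 Notch ligands, receptors and targets, all tested, of which none was called and 2 had an unadjusted p under 0.05 (DESeq2), with a median log2 fold change of 0.006. Dner, a Notch ligand of neurons, was at 0.18 (adjusted p = 0.231), and passed with the replicate number as a block (adjusted p = 0.0414). Numbl was at -0.07, Hey1 at 0.05 and Adam10 at 0.07. Dlk2, the closest relative of Dlk1, was at -0.15 (DESeq2, adjusted p = 0.771) and was likewise singled out after its value was seen. Neither edgeR nor limma called a gene of the thyroid or Notch lists.

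Of 22 genes of imprint maintenance and Polycomb repression, 21 were tested, none was called and none had an unadjusted p under 0.05 (DESeq2), with a median log2 fold change of 0.017. Atrx was at 0.07, Trim28 at 0.08 and Zfp445, a zinc finger gene that maintains imprints, at 0.01. No gene of this list was called by edgeR or limma either.

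Of the 4 pathway lists, the relatives of Rtl1 were the 1 with calls. Of 11 genes of the retrotransposon-derived family, 2 rose (18.2%, against 1.36% of all genes), none fell, and the median log2 fold change was 0.069. Peg10, an imprinted gene that is itself paternally expressed, had 1355, 1850, 1276 and 1933 normalized counts in L192P and 1182, 761.5, 1034 and 947 in WT. Every L192P library was above every WT library (log2 fold change 0.71, DESeq2 adjusted p = 4.5e-04), but with the replicate block the adjusted p was 0.116. Rtl5 had 755, 736, 759.8 and 781 in L192P and 616.5, 561, 602 and 642 in WT (0.33, DESeq2 adjusted p = 0.00479, and 0.00943 with the block). With edgeR the adjusted p was 0.0702 for Peg10 and 0.0598 for Rtl5, so neither was called, and with the replicate block in edgeR both were (adjusted p = 0.0183 and 0.0103). The most abundant relatives, Rtl8c (-0.02), Rtl6 (-0.03), Rtl8b (-0.06) and Rtl8a (0.07), had log2 fold changes near 0.

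How reads were assigned to strands bears on Rtl1 and Mirg. The library kit keeps the strand, but the sources used here do not say whether the counting used it. Exons of Rtl1 share between 62 and 124 bases with each of 7 miRNA genes on the opposite strand, and 6.48% of the exon bases of Mirg lie opposite the annotated RNA Gm59482. If strand was not used, reads from the precursor of the miRNAs and from Rtl1 cannot be told apart. Dlk1 and Dio3 share no exon bases with another annotated gene.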

How the data were processed

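Poly(A)-selected stranded mRNA libraries from cerebral cortex were aligned by the authors with STAR to GRCm39 and counted per gene with featureCounts. Raw counts per gene and library were deposited, without pooling, beside a table of normalized signal that the authors made by dividing those counts by DESeq2 size factors. The STAR and DESeq2 versions in the submitters' processing notes (2.7.9a and 1.40.2) differ from those in the methods of the study, and the Ensembl release and strand setting of featureCounts 1.5.1 are not given in the sources used here.

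Counts were fitted over all 8 libraries with DESeq2 1.42.0 in R 4.3.3, with genotype as the only term and Benjamini-Hochberg adjustment over all genes. The threshold was an adjusted p of 0.05, whatever the fold change. Gene positions and exon lengths came from GENCODE M39 (GRCm39), in which 98.8% of the identifiers were found. TPM was computed from counts and summed exon length, and intervals are at 95%. Single genes were also tested with exact permutations (scipy 1.17.1). Hairpins and mature miRNAs of RefSeq (GRCm38.p6 table) were placed on GRCm39 by exact match. The fits were tested on simulated counts.

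The members, gene lists and rules for naming genes were chosen with earlier results of these data known. Named were the 6 members, Ago2, called genes of the window, genes between Dlk1 and Dio3 with a mean of at least 10 normalized counts, called list genes and up to 4 of the most abundant per list, and the 3 genes most like each member. Some genes that this rule names are not reported here. Alternatives were edgeR 4.0.16, limma 3.58.1 (voom, and trend on the authors' normalized values plus 1 or 10), other size factors and filters, the replicate block, and leaving out libraries.

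Depth was 20396357 to 43575900 counts per library. For Dio3, at 15 to 130 counts, counting error adds to the spread between libraries. No pair of libraries of a genotype agreed within sampling noise (chi-square per degree of freedom 5.52 to 22.6 over 12 pairs). The labels do not say what the replicate numbers stand for, or that libraries come from separate animals, in which case p-values measure only the spread between these samples. Deviations from the genotype means correlated at 0.23 to 0.63 between the 4 same-numbered pairs (13422 genes) and at -0.38 to 0.14 between the 12 others, so the number was taken to pair the libraries. The fits and permutation tests reported first are unpaired, and blocked values follow for Dlk1 and where they differ in outcome.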

Additional observations from a re-analysis of the deposited data

Results flagged for a closer look

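A screen looked for a library that lies far from the other 3 of its genotype (Dixon's test). It covered 60 groups of 4 libraries, the members, their ratios and the marker sums among them. Of these groups, 4 stood out where chance gives about 3.0. In 3 of these 4 the library was L192P replicate 1. Its Meg3 level was 42658 normalized counts, and the other L192P libraries were at 14603 to 19277. The log2 ratio of Mirg to Meg3 was -8.47 in the same library and -7.65 to -7.55 in the other 3, where the numerator was 121 normalized counts in replicate 1 and 72.8 to 98.2 in the rest. The summed astrocyte markers were at 34744 normalized counts in L192P replicate 1 and at 50277 to 53468 in the other L192P libraries. The fourth was the log2 ratio of Dlk1 to Meg3 in WT replicate 3, at -6.18 against -7.04 to -6.89 in the other WT libraries. What sets replicate 1 apart was not tested.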

How the results depend on the processing

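The call of Dlk1 held in 21 of 21 alternatives, and none of the other 5 members passed in any of them; Dio3 had no adjusted p with the replicate block. With 1 library left out, the log2 fold change ranged from -0.14 to 0.53 for Rtl1 (negative without L192P replicate 1), from -0.57 to 0.22 for Meg3 (positive without L192P replicate 2, at 0.0597, or WT replicate 1, at 0.22), and from -0.0862 to 0.007 for Rian (positive without L192P replicate 3 or WT replicate 2, at 0.007 and 0.0001). Dio3 ranged from 0.0823 to 0.70 and Mirg from -0.57 to -0.18, with no change of sign. The changes of sign lie within the standard errors.

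Over all genes, 253 calls became 53 with edgeR, 45 with limma-voom, and 51 and 54 with limma-trend at pseudocounts 1 and 10. With the replicate number as a block there were 533 calls (228 higher, 305 lower) in DESeq2 and 513 in edgeR. Leaving out 1 library gave 112 (without WT replicate 4) to 496 calls (without WT replicate 1), and leaving out both replicate 1 libraries gave 500. That fit combined with the block, chosen after seeing the data, gave 572, with Dlk1 at 1.37 (DESeq2 adjusted p = 3.03e-15) and 1 call in the flanks, Hsp90aa1 (0.21, DESeq2 adjusted p = 0.00294).

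In the thyroid list there was 1 call, Hr, without WT replicate 1, without both replicate 1 libraries, and in the combined fit, and leaving out 1 library gave 0 to 1. In the Notch list there was 1 call with the block, without both replicate 1 libraries and in the combined fit, and leaving out 1 library gave 0 to 1. The 2 calls of the Rtl family became 0 with edgeR, limma-voom, both limma-trend fits and the combined fit, 1 with the block in DESeq2 (2 with it in edgeR), and 0 (without WT replicate 3) to 2 with 1 library left out. The DESeq2 block changed no other call among the members and pathway lists. With the canonical transcript length, mean TPM was 1770 for Meg3, 484 for Rian and 3.53 for Mirg. Apart from the transcript length, the cause of these changes was not tested. A fit with libraries left out changes both how many are used and which ones. Dio3, Rtl1 and Mirg had the fewest counts, but the widest standard error was that of Meg3 (0.46), so depth alone does not set the precision.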
